A study of Mus musculus with 3 samples.

Results

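The genes described here are Cd4, Cd8a and Cd8b1, which encode the co-receptors of the T cell receptor. They were chosen by name, as the probe sets that the array's annotation assigns to these symbols. Each has 1 probe set, so the 3 genes are 3 of 35556 probe sets and 3 of the 19938 genes with a named probe set. RNA of mouse thymocytes, the T cells that develop in the thymus, was measured on 3 Affymetrix whole-transcript arrays, 1 per genotype. The wild type mouse was 12 weeks old, the β-catenin transgenic mouse 16 weeks and the TCF-1-/- mouse, called TCF-1-deficient here, 8 weeks. No source used here gives the promoter of the transgene, the strain, or whether cells of several mice were pooled. With 1 array per genotype no difference has an error, a replicate check or a test. Neither age nor any other difference between the mice can be told apart from genotype.

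CD4 is a single-chain surface protein that binds class II MHC molecules, and CD8 is a dimer that binds class I. The CD8α chain can pair with itself or with CD8β, while CD8β needs CD8α to reach the surface. The tails of CD4 and CD8α bind the kinase Lck and bring it to the engaged T cell receptor. Thymocytes start without either co-receptor at the double-negative stage. In the mouse they commonly pass through an immature stage with CD8 alone, become CD4+CD8+ double-positive cells, and after selection keep either CD4 or CD8. TCF-1 is a DNA-binding factor of the Wnt pathway, with which β-catenin acts as a coactivator. The study compared its loss, and extra β-catenin, with wild type.

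Without TCF-1, all 3 co-receptor genes were at least 2-fold below wild type, the size rule used here, and the Cd4 difference was the lowest of the 3. None of the 3 differed by 2-fold on the transgenic array. The same rule was met by 2.62% of all 19938 genes in the lower direction and by 1.33% in the higher direction. With arrays centred on their medians over all probe sets, 405 genes were lower and 364 higher, in place of 523 and 266. In the transgenic comparison 0.15% were higher and 0.0953% lower.

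Cd4 had a deposited log2 level of 12.87 in wild type, 13.29 in transgenic and 9.13 in TCF-1-deficient thymocytes. The difference without TCF-1 was -3.74, or 13.4-fold lower, which leaves 7.47% of the wild type signal. Only 3 of the 19938 genes had a lower difference in this comparison. The transgenic level was 0.41 above wild type, a 1.33-fold difference under the 2-fold rule. In the transgenic comparison 95% of all genes lay between -0.36 and 0.29, and 221 genes (1.11%) had a higher difference than Cd4. Between the transgenic and the TCF-1-deficient arrays, which leaves out the wild type array, Cd4 differed by 4.16, or 17.8-fold. In that comparison 2.45% of all genes lay at least 2-fold higher and 1.57% lower, and 5 genes had a higher difference than Cd4.

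Cd8a, which encodes the CD8α chain, had levels of 12.93 in wild type, 12.97 in transgenic and 11.48 in TCF-1-deficient thymocytes. Its difference without TCF-1 was the smallest of the co-receptor genes, at -1.45 (2.73-fold lower), and 228 genes had a lower difference. Transgenic and wild type levels were 0.05 apart. The transgenic array was 1.49 above the TCF-1-deficient one. The probe set is annotated with 2 RefSeq mRNAs of the gene, so its level does not separate Cd8a isoforms.

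Cd8b1, which encodes CD8β, had levels of 13.36 in wild type, 13.39 in transgenic and 11.27 in TCF-1-deficient thymocytes. Its difference without TCF-1 was -2.10 (4.28-fold lower), and 67 genes had a lower difference. The transgenic array was 0.03 above wild type and 2.12 above the TCF-1-deficient array. For all 3 genes the transgenic level was the highest and the TCF-1-deficient level the lowest, and the transgenic and wild type levels lay closer together for the CD8 genes than for Cd4. Of all genes, 35.3% had a larger absolute transgenic difference than Cd8a and 39.9% a larger one than Cd8b1.

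**Figure D1:**
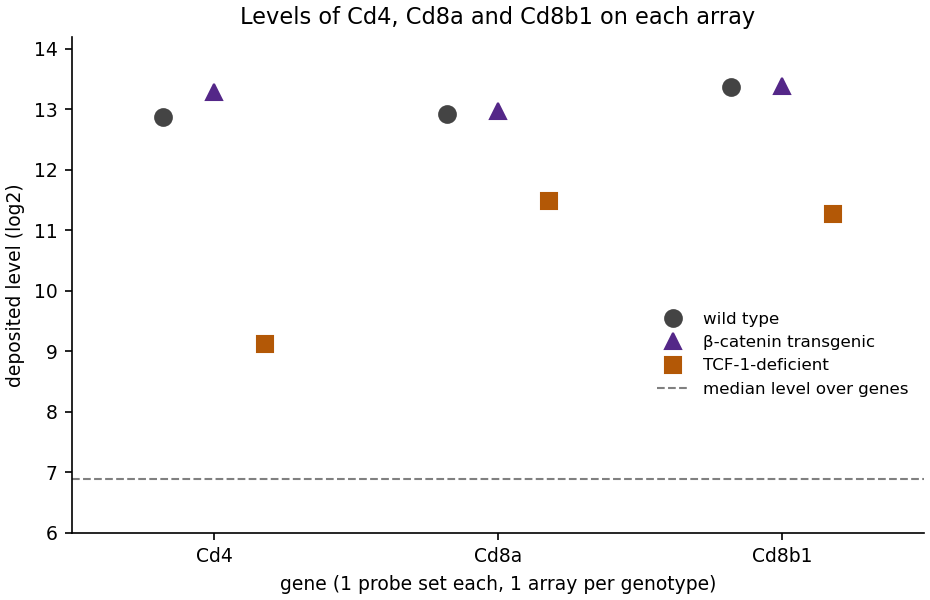
Deposited log2 level (vertical axis) of Cd4, Cd8a and Cd8b1 on the wild type (circles), β-catenin transgenic (triangles) and TCF-1-deficient (squares) arrays, 1 value each with no error, and the median of the mean levels of all genes (dashed, 6.90). The TCF-1-deficient point is lowest for each gene, and the Cd4 point falls furthest, from 12.87 to 9.13; heights of different genes come from different probes and are not to be compared.

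The co-receptor genes differed by unequal amounts. Without TCF-1, the Cd4 difference minus that of Cd8a was -2.30 on the log2 scale (4.91-fold), and minus that of Cd8b1 it was -1.64 (3.13-fold). The Cd8a difference minus that of Cd8b1 was 0.65 (1.57-fold), so Cd8b1 was the lower of the CD8 chains. Taken between the transgenic and TCF-1-deficient arrays, the same gaps were 2.66, 2.03 and -0.63. None of these probe sets had identical values on any pair of arrays, although 36.4% of all genes did in the TCF-1-deficient and 53.3% in the transgenic comparison with wild type. All co-receptor levels also lay above 6.90, the median over genes of the mean level, on every array. In a whole thymocyte suspension, fewer cells that carry a co-receptor and less of its RNA per cell cannot be told apart.

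**Figure D2:**
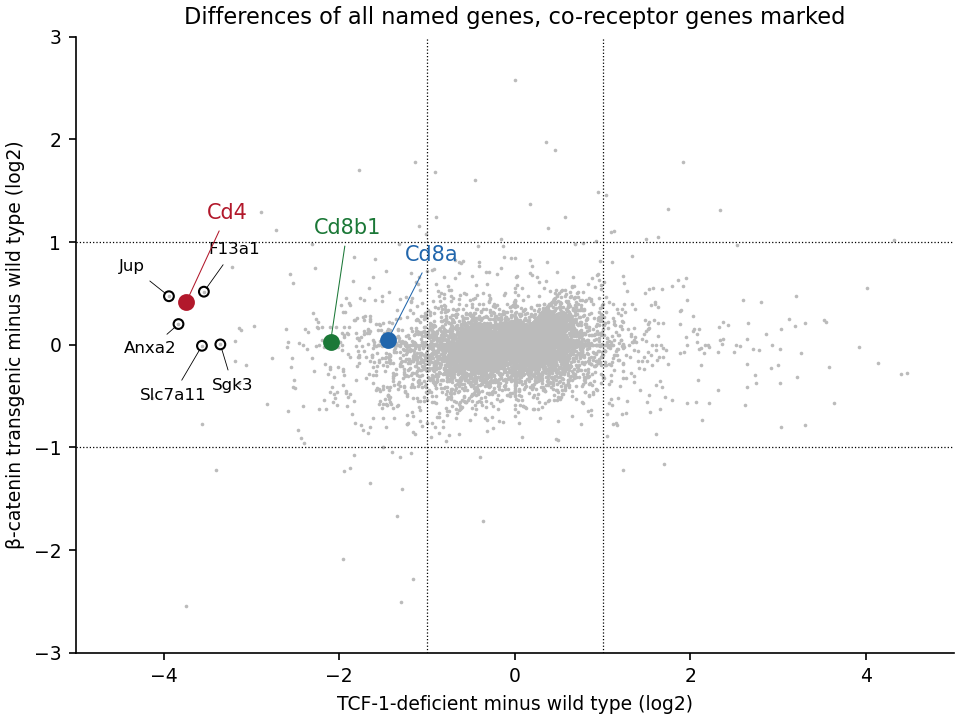
Difference from wild type of every named gene on the TCF-1-deficient (horizontal) and transgenic (vertical) arrays, in log2 units; both axes use the same wild type array, dotted lines mark 2-fold, open circles are the genes most like Cd4, and 4 genes lie outside the axes. Cd4 sits at -3.74 and 0.41, away from Cd8b1 at -2.10 and 0.03 and Cd8a at -1.45 and 0.05.

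The genes with the pair of differences from wild type most like that of each co-receptor gene were found by distance in the plane of the TCF-1-deficient and transgenic differences, among 9493 genes at or above the median level. Nearest to Cd4 were Jup (-3.94 and 0.47), which encodes plakoglobin, F13a1 (-3.54 and 0.52), a chain of coagulation factor XIII, and Anxa2 (-3.83 and 0.20), an annexin. Slc7a11 and Sgk3 followed at 0.46 and 0.57 log2 units from Cd4, so that the area around Cd4 held few genes. Nearest to Cd8a were Csrnp1, Mgst3, Lsp1, Amn1 and Rag2, all within 0.07 of it. Rag2, part of the V(D)J recombinase, was at 10.23 on the wild type, 10.34 on the transgenic and 8.80 on the TCF-1-deficient array. Nearest to Cd8b1 were Stx7, Vamp1, Eif4e3, Tsc22d1 and Tube1, all within 0.10. The likeness rests on 3 arrays and on differences that share the wild type value.

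The Cd8a promoter is shown because its gene was lower without TCF-1; of the 3 genes, Cd8a matched the RefSeq promoter table and Cd4 and Cd8b1 did not. The stretch below runs over the 250 bases before the RefSeq start of Cd8a, chr6:71373177-71373426 on the plus strand of GRCm38.p6. Capitals mark every match to GGAA, the core of ETS factor sites, on either strand (TTCC is its reverse complement), and to CANNTG, the E-box bound by E proteins.
Cd8a: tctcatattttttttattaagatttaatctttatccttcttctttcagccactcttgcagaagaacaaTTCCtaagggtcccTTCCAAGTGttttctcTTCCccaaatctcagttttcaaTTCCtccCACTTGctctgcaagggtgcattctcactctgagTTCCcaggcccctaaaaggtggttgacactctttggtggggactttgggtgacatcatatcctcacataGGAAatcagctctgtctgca
It holds 6 matches to GGAA, of which 5 are on the opposite strand, and 93.5% of 32851 promoter windows of the same length hold at least 1. It holds 2 E-boxes, CAAGTG starting 165 bases and CACTTG starting 123 bases before the start, and 66.2% of windows hold at least 1. The first E-box shares 1 base with a TTCC. Neither CTTTGA nor CTTTGT, spellings of the site of TCF and LEF factors, nor TGTGGT, a RUNX site, was found on either strand, against 13.8%, 16.5% and 14.1% of windows. These are matches of letters in a short window and leave out the enhancers and the silencer of these genes.

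Genes beside the co-receptor genes on mouse chromosome 6 were also compared, as the 5 nearest on each side in the RefSeq gene order. Predicted genes were left out, as were entries given there as microRNA, small nucleolar or nuclear RNA, long non-coding RNA or pseudogene. Rpl34-ps1, named as a pseudogene but not given as one there, was kept and has no probe set used here. Of 20 such neighbours 19 were measured, and 3 were lower by at least 2-fold without TCF-1 (2.62% of all genes were). They were Gpr162, an orphan receptor gene on one side of Cd4, Ptms, which encodes parathymosin, on its other side, and Rmnd5a beside Cd8a. Gpr162 was at 9.20 on the wild type, 9.31 on the transgenic and 7.23 on the TCF-1-deficient array, a difference of -1.97 from wild type without TCF-1. Ptms was at 9.66, 10.21 and 8.00 in the same order. Its differences of -1.66 and 0.55 had the signs of those of Cd4 (-3.74 and 0.41). Lag3, which lies between Cd4 and Ptms and encodes a CD4-related receptor for class II MHC, was listed at 7.18 on all 3 arrays, and P3h3 and Gnb3 were likewise identical on all arrays. The remaining neighbours of Cd4 differed by between -0.27 and 0.25 without TCF-1.

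Rmnd5a, a ubiquitin ligase subunit gene beside Cd8a, was at 11.05 on the wild type, 11.36 on the transgenic and 10.04 on the TCF-1-deficient array. Its difference of -1.01 without TCF-1 was just beyond 2-fold and came inside it with arrays centred on all probe sets or with an intensity trend removed, so that 2 neighbours were then lower. Beyond it, Rnf103 (-0.75) and Kdm3a, a histone demethylase (-0.78), were lower by less than 2-fold, Chmp3 was identical on all arrays, and Reep1 was higher by 1.59. On the Cd8b1 side, Krcc1 differed by -0.56 and Smyd1 by -0.41, while Fabp1 and Thnsl2 differed by 0.07 and 0.33. Smyd1, a methyltransferase known from muscle, had the highest transgenic difference of the neighbours (0.81), from 7.02 to 7.83. Whether the probes of these sets detect transcripts that run on from the co-receptor genes was not tested.

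**Figure D3:**
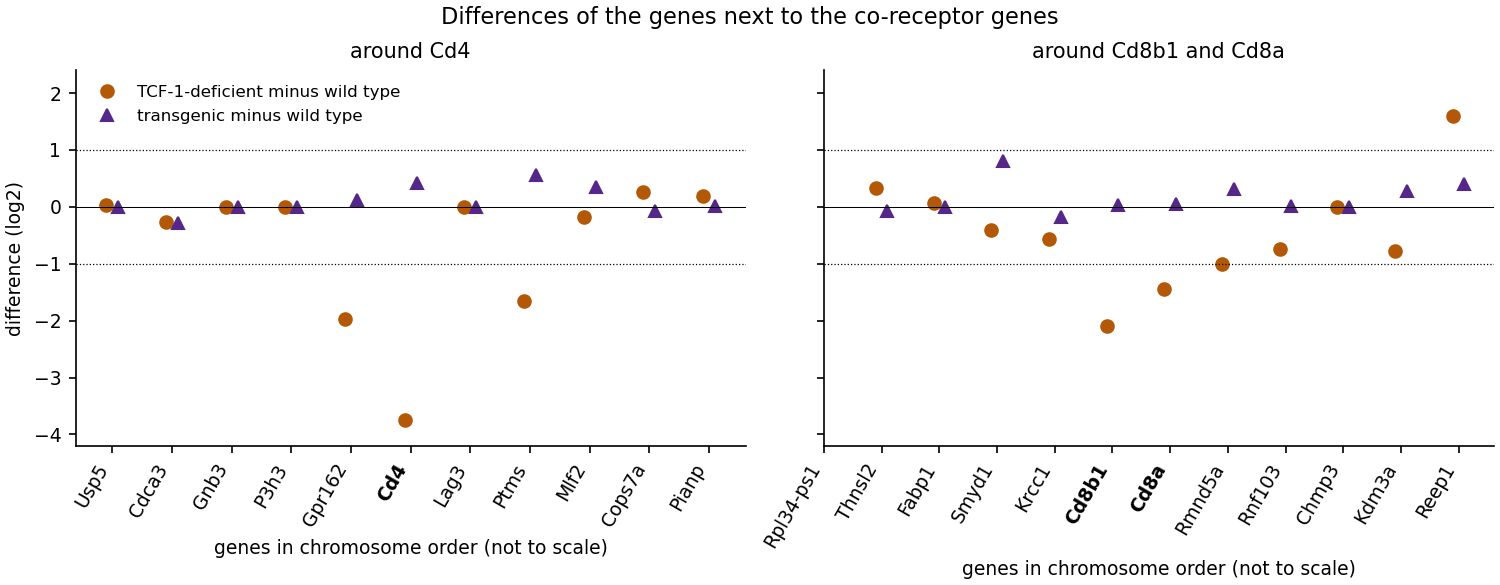
Difference from wild type in log2 units (vertical axis) of Cd4, Cd8b1, Cd8a and the 5 genes on each side, in chromosome order but not to scale; circles are the TCF-1-deficient and triangles the transgenic array, dotted lines mark 2-fold, and Rpl34-ps1 has no point. Gpr162 (-1.97) and Ptms (-1.66) lie below the 2-fold line beside Cd4 (-3.74), with Lag3 at 0 between them.

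Factors that act on the Cd4 locus were found on both sides of wild type. Without TCF-1, 2 of 26 measured regulators were at least 2-fold lower and 1 was higher, beside 2.62% and 1.33% of all genes, and 0 differed by that much on the transgenic array. Satb1, a chromatin organiser, was at 13.60 on the wild type, 13.59 on the transgenic and 12.30 on the TCF-1-deficient array. Ikzf1, which encodes Ikaros, was at 11.90, 11.74 and 10.65. Hes1, a Notch-induced repressor, was at 6.82, 6.53 and 9.55, a difference of 2.74 without TCF-1, with wild type and transgenic levels under the median over genes.

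RUNX factors act on both the Cd4 silencer and the Cd8 enhancers. Runx3, the family member of CD8 lineage cells, differed by 0.85 without TCF-1 and by -0.38 with the transgene, both under 2-fold. Runx1 was listed at 11.44 on all 3 arrays, and their partner Cbfb differed by -0.07 without TCF-1. Zbtb7b, which encodes the CD4 lineage factor ThPOK, differed by -0.32, and Patz1, which encodes the Cd8 repressor MAZR, by -0.04. Lef1, the relative of TCF-1, was higher by 0.54 without TCF-1. The E protein genes Tcf12 and Tcf3, whose products bind the Cd4 enhancer, differed by -0.17 and -0.04.

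Of 19 measured regulators of the Cd8 genes, 2 were lower, Satb1 and Ikzf1, and 0 higher by at least 2-fold without TCF-1. Over all genes 2.62% were lower and 1.33% higher. Stat5b, a factor downstream of the IL-7 receptor, differed by -0.84, and Bcl11b, a T lineage factor, by -0.68. The median differences without TCF-1 were -0.04 for the Cd4 regulators and -0.07 for the Cd8 regulators, against 0 over all genes and -2.10 over the 3 co-receptor genes. Both medians became positive, at 0.10 and 0.07, with arrays centred on all probe sets, which adds 0.13 to each difference in this comparison. The lists share 13 genes.

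Chains of the receptor that the co-receptors serve differed in both directions. Of 5 chains of the T cell receptor complex and the pre-TCR, 0 were lower and 1 was higher by at least 2-fold without TCF-1, where 2.62% and 1.33% of all genes were, and their median was 0.17. Cd3e, a signalling chain, was at 13.42 on the wild type, 13.34 on the transgenic and 13.05 on the TCF-1-deficient array. Cd3g was at 13.16, 13.10 and 13.33, and Cd3d differed by 0.60 without TCF-1. Ptcra, the pre-TCR α chain, was the higher one, with a difference of 1.79, and Cd247, which encodes the ζ chain, had the lowest (-0.91). Lck itself was not analysed here. None of 11 genes that act on or beside Lck differed by 2-fold without TCF-1. The largest differences were in Unc119, an activator of Lck (0.81), Cbl, a ubiquitin ligase (-0.75), Ptprc, which encodes the phosphatase CD45 that activates Lck (-0.67), and Fyn, the related kinase (0.66). Csk, the kinase that inhibits Lck, differed by 0.18, and the median was -0.01.

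Of 13 measured genes of proximal T cell receptor signalling, 3 were lower without TCF-1: Themis, a signalling protein of thymocytes (-1.75), Grap2, an adaptor (-1.07), and Cd28, the costimulatory receptor (-1.06). The median of the 13 was -0.59, and 2.62% of all genes were lower by at least 2-fold. With arrays centred on all probe sets Themis alone was beyond 2-fold, and it is also on the list of double-positive genes below. Zap70, the kinase recruited to the receptor, was listed at 10.55 on all 3 arrays. On the transgenic array 0 of the genes in these 3 lists differed by 2-fold from wild type.

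MHC molecules are the ligands of the co-receptors. Without TCF-1 the measured class II chain genes and Cd74 were higher by 0.81 to 1.11. The measured genes for class I expression differed by between -0.35 and 0.26. Of 6 genes for ligands of CD4 or their expression, 1 was at least 2-fold higher without TCF-1, beside 1.33% of all genes. It was H2-Aa, an α chain of class II (1.11). H2-Ab1 (0.95), Cd74, the invariant chain (0.90), and H2-Eb1 (0.81) were close behind, and with arrays centred on all probe sets 3 of the 6 were beyond 2-fold. Il16, a cytokine that binds CD4, differed by -0.44, and Ciita by 0.28. B cells and many myeloid cells express class II, and their marker lists had median differences of 0.96 and 0.42 on the same array, whose part in the class II differences was not tested. Of 5 measured genes for class I expression 0 differed by 2-fold. The class I chain genes H2-K1, H2-D1 and H2-T3 were on the list but were not analysed here. The peptide transporter genes Tap2 and Tap1 differed by -0.35 and -0.31, B2m, the shared light chain of class I, by 0.26, and the median was -0.04.

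Among CD4-related and co-signalling receptors, 1 of 9 was at least 2-fold lower without TCF-1 and 2 were higher. The shares over all genes were 2.62% and 1.33%, and the median of the 9 was -0.13. Cd226, an activating receptor, went from 8.02 to 6.13, a difference of -1.89. Cd160 and Pdcd1, which encodes PD-1, were higher by 2.12 and 1.47. Btla, an inhibitory receptor, was at a difference of 0.98, and passed 2-fold with arrays centred on all probe sets.

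Other genes of the double-positive stage were lower together with the co-receptor genes. Without TCF-1, 12 of 14 measured genes, the co-receptors not included, were at least 2-fold lower and 0 higher, beside 2.62% and 1.33% of all genes. The median of the 14 was -1.70 against 0 over all genes. This list, like the others here, was chosen with earlier results of these data known, so its counts are a description only. Cd4 had a lower difference than any of the 14. Cd8b1 had a lower one than 12 of the 14, with Bcl6, a repressor (-2.58), and Slamf1, a co-stimulatory receptor (-2.26), below it. Cd8a had a lower one than 5, and 9 genes lay below it, which besides these were Plxnd1, a semaphorin receptor (-2.04), Rag1 (-1.95), Ccr9, a chemokine receptor (-1.81), Cd1d1 (-1.81), Themis (-1.75), Bcl2l1, a survival gene (-1.65), and Ets2 (-1.51). Rag2 (-1.44), Arpp21 (-1.17) and Aqp11 (-1.05) were the other genes beyond 2-fold. With arrays centred on all probe sets, or with an intensity trend removed, 11 of the 14 were at least 2-fold lower. The genes within 2-fold were Dntt, which encodes the enzyme that adds bases at antigen receptor joints (-0.43), and Mns1 (-0.20). On the transgenic array the median of the 14 was 0.09 and 0 were beyond 2-fold. Ets2, a transcription factor, was the 1 with a higher transgenic difference (0.47) than Cd4 (0.41).

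Most genes of the double-negative stage, which precedes co-receptor expression, had the opposite sign. Without TCF-1, 8 of 12 were at least 2-fold higher and 0 lower, beside 1.33% and 2.62% of all genes, with a median of 1.57. The 8 were Dtx1 (3.03), Hes1 (2.74), Il2ra (2.06), Cd93 (1.88), Ptcra (1.79), Notch3 (1.60), Notch1 (1.54) and Mef2c (1.21). Hes1 was also counted above among the Cd4 regulators, and Ptcra among the receptor chains. Of the genes outside these 8, Kit differed by 0.21, and Cd44, at -0.91, had the sign of the co-receptor genes. Erg and Spi1 differed by 0 and lay below the median level on every array. Dtx1, a Notch-induced gene, was at 8.79 on the wild type and 11.82 on the TCF-1-deficient array. Il2ra, the IL-2 receptor α chain that marks part of this stage, was at 10.44 and 12.50. Cd44, which marks the earliest cells, was at 7.85 on the wild type, 9.54 on the transgenic and 6.95 on the TCF-1-deficient array. It was the 1 gene of the list beyond 2-fold on the transgenic array. Proliferation genes, which are high in the immature CD8+ cells among others, had a median difference of 0.19 without TCF-1 over 7 measured genes, with Mki67 at -0.28, Top2a at -0.14 and Mcm2 at 0.43. Tfrc, the transferrin receptor, went from 8.83 to 9.83, just beyond 2-fold and inside it with arrays centred on named genes.

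Genes of the later stages, when cells keep one co-receptor, were mixed. Over all genes 2.62% were at least 2-fold lower without TCF-1 and 1.33% higher. Of 6 genes of CD4 single-positive cells, Cd40lg, the ligand of CD40, differed by -1.62 without TCF-1 and Izumo1r, the folate receptor 4 gene, by 1.32. Of 9 genes of CD8 single-positive cells, Itgae, which encodes CD103, was higher by 1.66 and Cst7, cystatin F, by 1.10. The median of these 9 was 0, and their lowest difference was that of Klrd1 (-0.58). None of either list was beyond 2-fold on the transgenic array. Of 7 measured genes of mature thymocytes, Cd69 (-2.24) and Cd52 (-1.66) were at least 2-fold lower without TCF-1. The median of these 7 was -0.69, and their highest difference was that of Il7r (0.63). On the transgenic array 0 of the 7 were beyond 2-fold and their median was -0.55, below the 0 over all genes, with S1pr1, the egress receptor, at -0.81.

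**Figure D4:**
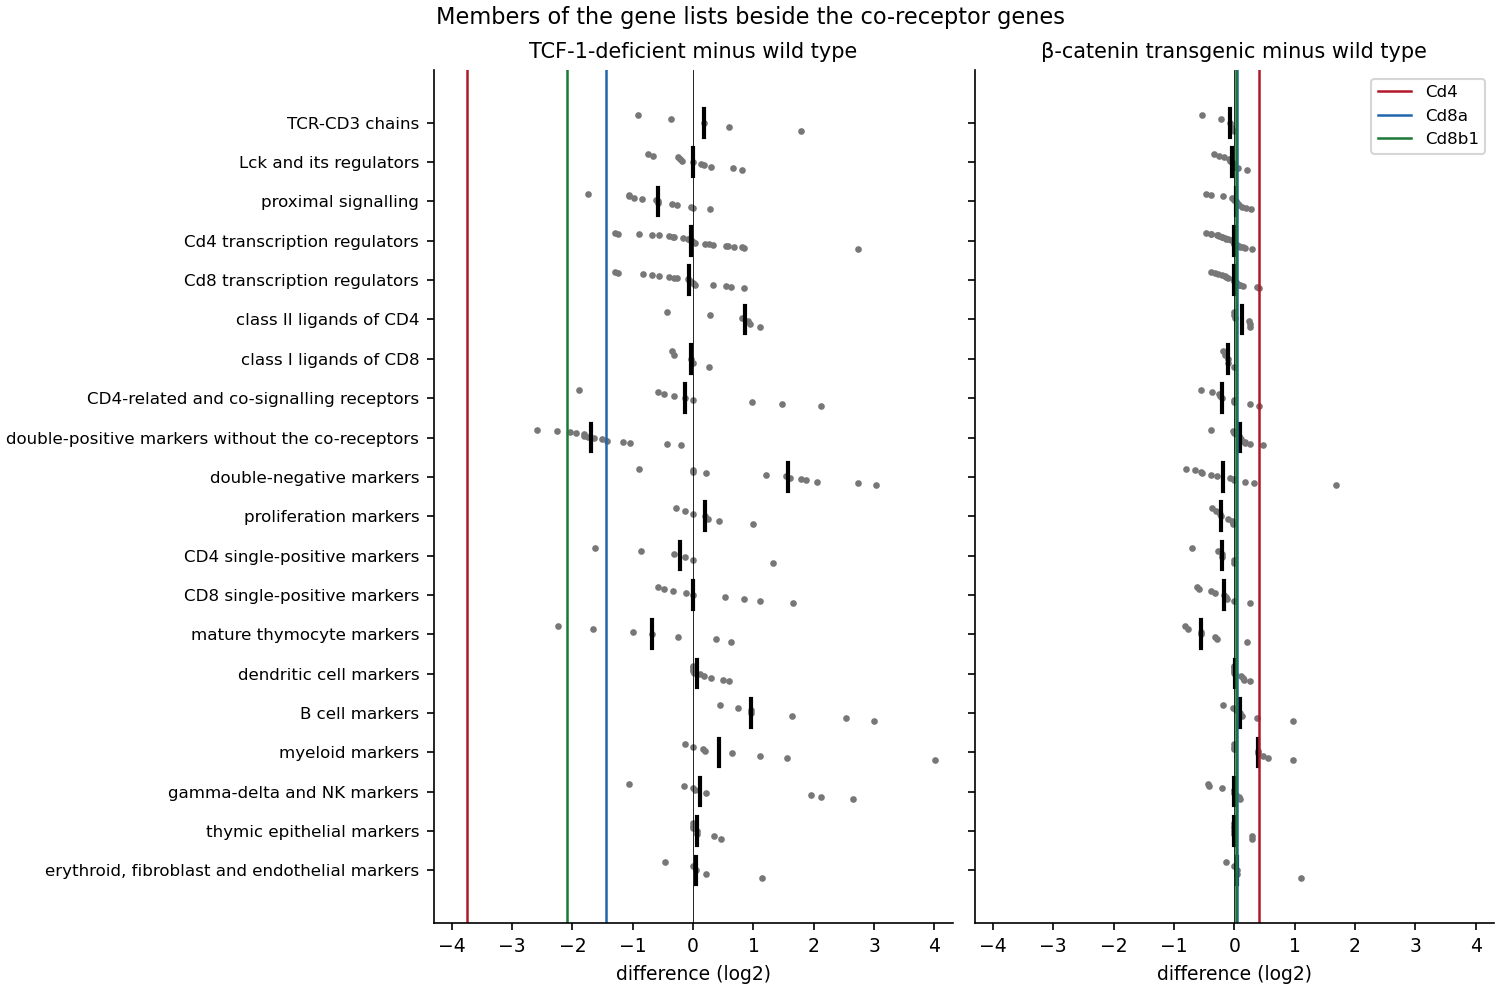
Difference from wild type in log2 units (horizontal axis) on the TCF-1-deficient (left) and transgenic (right) arrays; each point is a gene of the list named on the vertical axis, black bars are list medians, and coloured lines are Cd4, Cd8a and Cd8b1. On the left, the double-positive list (median -1.70) has the lowest median of the lists and the double-negative list (median 1.57) the highest; on the right all list medians lie between -0.55 and 0.39.

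Thymocyte markers were present on all arrays, with Cd3e between 13.05 and 13.42, while all 7 thymic epithelial genes lay below the median level over genes on every array. Markers of other cells that can carry a co-receptor, or that lack both, were followed as well. In the mouse a subset of dendritic cells carries CD8α. Of 10 dendritic cell genes 0 differed by 2-fold, 7 lay below the median level on every array, and Xcr1 and Clec9a, which define that subset, were identical on all arrays at 6.35 and 5.10. The log2 of the summed linear level of this list was 9.84 on the wild type, 9.91 on the transgenic and 10.06 on the TCF-1-deficient array. Over all genes 1.33% were at least 2-fold higher without TCF-1 and 2.62% lower. Of 7 measured B cell genes, 3 were higher, Blk (2.99), Cd79a (2.53) and Ms4a1 (1.64). Their median was 0.96 and the summed level 10.40, 10.60 and 11.75. Of 8 myeloid genes, 3 were higher, Ly86 (4.01), Cybb (1.55) and Lyz2 (1.12), and the median was 0.42. The others were within 2-fold: Cd14 (0.64), Csf1r (0.20), Adgre1 (0.16), Fcgr3 (0) and Itgam (-0.14). The first 4 of these lay below the median level on every array. The summed level of the 8 was 9.93, 10.36 and 12.07, and the last value rests largely on Ly86, at 11.50. Of 8 γδ T and NK cell genes, 3 were higher, Gzma (2.65), Cd160 (2.12), also listed among the co-signalling receptors, and Sox13 (1.95). The median was 0.12, and 3 of the 8 lay below the median level on every array. Klrb1c, 1 of these 3, was lower (-1.06), but came inside 2-fold with arrays centred on all probe sets. The summed level of the 8 was 10.66, 10.43 and 12.29, and the last value rests largely on Gzma, at 11.60. With arrays centred on all probe sets 5 B cell genes were beyond 2-fold. Of 5 measured erythroid, fibroblast and endothelial genes, Alas2, an enzyme of haem synthesis in red cells, was higher by 1.14 without TCF-1 and by 1.11 with the transgene. The part of these cells in the co-receptor differences was not tested.

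The transgenic array also stood apart in Xist, the RNA of the inactive X chromosome, at 4.86 against 12.49 in wild type and 12.17 without TCF-1. The part of this in the Cd4 difference of 0.41 was not tested, and the labels used here give no sex. The β-catenin gene Ctnnb1 was at 11.39 on the transgenic and 11.15 on the wild type array, and no source used here says whether its probes detect the transgene.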

How the data were processed

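Per the labels' protocols, thymocytes were strained and total RNA was labelled for whole-transcript arrays. RMA and Partek are named in the submitters' processing notes, and RMA ends in log2 values. The deposited values, from 1.73 to 14.8, were therefore treated as log2, though no header gives the log base. No source used here gives versions, settings or a genome build. The deposited normalisation was kept. Probe sets were named from the platform annotation: 21789 had 1 symbol, 1621 had several and were not used, and 99.6% of the former matched the GRCm38.p6 gene table by Entrez identifier. For the 999 genes with several probe sets the one with the highest mean was taken. Each difference is one array's log2 value minus another's, called at 2-fold. With 1 array per genotype there is no test, and precision is limited by the number of arrays. Columns of samples outside this series numbered 0.

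The co-receptor genes, 20 gene lists and the naming rule were chosen with earlier results of these data known. The rule names list members beyond 2-fold in any comparison or, failing that, up to 5 with the largest differences, the 5 genes most like each co-receptor gene, and the neighbours. Not every list member beyond 2-fold between the transgenic and TCF-1-deficient arrays alone is named. Genes named beyond it, such as regulators within 2-fold, Xist and Ctnnb1, were chosen after their values were seen. Genes on chromosome 6 were ordered by their start in the GRCm38.p6 table. Its coordinates were used for the order only, as the files name no build. The promoter comes from RefSeq on GRCm38.p6. Protein sequences were not used here. The alternatives were centring on all probe sets or on named genes, loess (span 0.3), other rules for several probe sets, thresholds of 1.5-fold and 3-fold, and leaving out dim genes or identical values. The calculation was tested on simulated data. Python 3.11.15, NumPy 2.4.6, pandas 2.3.3, statsmodels 0.14.6 and matplotlib 3.10.9 were used.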

Additional observations from a re-analysis of the deposited data

How the results depend on the processing

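The differences of the 3 co-receptor genes kept their direction under each alternative run on them, between -3.79 and -3.61 for Cd4, -1.50 and -1.31 for Cd8a and -2.15 and -1.97 for Cd8b1 without TCF-1, and between 0.40 and 0.49, 0.04 and 0.12, and 0.01 and 0.11 with the transgene. Each kept its side of the 2-fold rule under these, and 3-fold was not reached by Cd8a (-1.45, and 1.49 between the transgenic and TCF-1-deficient arrays). Under the threshold of 1.5-fold, by construction, 1376 genes were lower and 806 higher without TCF-1, 133 and 97 with the transgene, and 878 and 1255 on the transgenic against the TCF-1-deficient array. Under 3-fold the counts were 175 and 107, 7 and 11, and 118 and 177. At 1.5-fold 5 neighbours and 7 signalling genes were lower without TCF-1, and at 3-fold 1 signalling gene was, as it was with centring on all probe sets. That centring brought the B cell median to 1.09. With dim genes left out, so with fewer genes, the medians without TCF-1 were 2.53 for B cell, 1.33 for myeloid and 1.08 for γδ and NK genes. Between the transgenic and TCF-1-deficient arrays they were -1.56 for B cell and -1.08 for γδ and NK genes, and -1.08 for the latter with identical values left out. The other 350 list medians compared stayed on their side of 2-fold, though several medians near 0 changed sign with the scaling. The 12 ranks of co-receptor genes compared stayed within 1.5 times, and that of Cd8a went from 228 to 259 with the trend removed. The choice of probe set changes nothing for genes with 1 probe set. No paired analysis was possible because each genotype has 1 array, and no replicate can be left out. Differences near background are limited by the signal. Differences of exactly 0 also occurred well above the median over genes, as for Runx1 (11.44) and Zap70 (10.55). Their origin was not tested, and they are not to be read as measured equalities.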
